A study of Mus musculus with 160 samples.

Results

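Arteries and veins are told apart by the genes their endothelial cells (ECs) express long before flow and wall structure differ fully, and 10 genes that carry this identity are described here across sorted cell populations of the mouse aorta-gonad-mesonephros (AGM) region, the embryonic tissue around the dorsal aorta. The members were chosen by symbol: the arterial genes Gja4, Gja5, Bmx, Efnb2 and Nrp1, and the venous or angiogenic genes Nr2f2, Ephb4, Nrp2, Aplnr and Apln. All 10 were found among the 46078 genes of the deposited count table. Their values are CPM (counts-per-million), the reads on a gene relative to all reads on genes in that library, after scaling for library composition.

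RNA was sequenced by Smart-seq2, a full-length cDNA method, from pools of 20 cells. Embryos carried GFP knocked into 1 allele of Gata3, so Gata3+ means GFP+ and the Gata3- controls came from the same embryos and carry the same allele; GFP reports Gata3 promoter activity in whatever cell type was sorted and can outlast the RNA. Gata3+ ECs and Gata3- ECs were taken at E10.5 as Cdh5+ cells lacking CD41 and CD45, and Gata3+ hematopoietic cells (HCs) and Gata3- HCs at E10.5 by CD41 and CD45. Gata3+ and Gata3- mesenchymal cells (MCs, Pdgfrb+) and Gata3+ and Gata3- cells of the sympathetic nervous system (SNS, Ngfr+) were taken at E11.5. Each of the 8 populations had 20 pools, each sort drew on several embryos mixed together, and the labels do not tie pools to embryos, so errors and p-values measure the spread between pools, which may be technical.

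Of 160 pools, 153 passed the depth and RNA filters, with 1400824 to 16004756 counts on genes per pool: 19 and 20 of the Gata3+ and Gata3- ECs, 20 and 20 HCs, 20 and 17 MCs, and 18 and 19 SNS. Gata3 itself had a median of 78.0 CPM in Gata3+ ECs and 10.47 in Gata3- ECs, and 45.1 against 7.03 CPM in HCs. At E10.5 Cdh5 lay at 265 CPM or more in every EC pool and at 30.1 or less in every HC pool. Within ECs it ranged from 756 to 1735 CPM (median 1001) in Gata3+ and from 265 to 726 CPM (median 430) in Gata3- pools. Ptprc, which encodes CD45, had medians of 208 and 429 CPM in Gata3+ and Gata3- HCs but 2.95 and 4.23 in the EC populations. In the lowest Gata3+ HC pool it was 4.66 CPM. Itga2b, which encodes CD41, had a median of 233 CPM in Gata3+ HCs (9.49 to 1412) but 8.66 in Gata3- HCs (0.60 to 136). In ECs it reached 14.6 CPM in Gata3+ and 7.74 in Gata3- pools, so the Gata3- HC median lay within the Gata3+ EC range. The EC populations thus differed in the RNA of Cdh5 and the HC populations in that of Itga2b, both sorting markers. The part of these differences in the EC and HC comparisons was not tested.

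At E11.5, 12 of the 74 passing pools went against their label, 3 in each of the 4 populations. They are the pools labelled MC with Pdgfrb, the receptor gene that defines the MC sort, under 50 CPM and the pools labelled SNS with Pdgfrb over 50 CPM. The 6 such pools labelled MC had Pdgfrb at 12.4 CPM or less, against 109.8 or more in the other 31, and the 6 labelled SNS had it at 117 to 249.8 CPM, against 28.8 or less in the other 31. The summed level of 11 sympathetic markers, which that limit does not use, was 1112 to 6027 CPM in the 6 labelled MC and 53.8 to 118 CPM in the 6 labelled SNS, against 20.6 to 159 CPM in the other MC pools and 1058 to 4759 CPM in the other SNS pools. In the 3 such pools of Gata3- MCs Gata3 reached 123 to 395 CPM, against 2.52 to 19.04 in the other 14 pools. In the 3 of Gata3+ SNS cells it was 9.97 to 24.3 CPM, against 111 to 306 in the other 15. Those of Gata3+ MCs had 16.3 to 82.3 CPM, against 19.7 to 70.5 in the other 17. Those of Gata3- SNS cells had 44.4 to 50.2 CPM, against 11.2 to 94.0 in the other 16. Gata3 thus also went against the label in Gata3- MCs and Gata3+ SNS cells. Differences as labelled include these pools. Calls at E11.5 are therefore given both as labelled and without these 12 pools, a choice made after seeing the data, and levels are as labelled unless said otherwise.

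**Figure D1:**
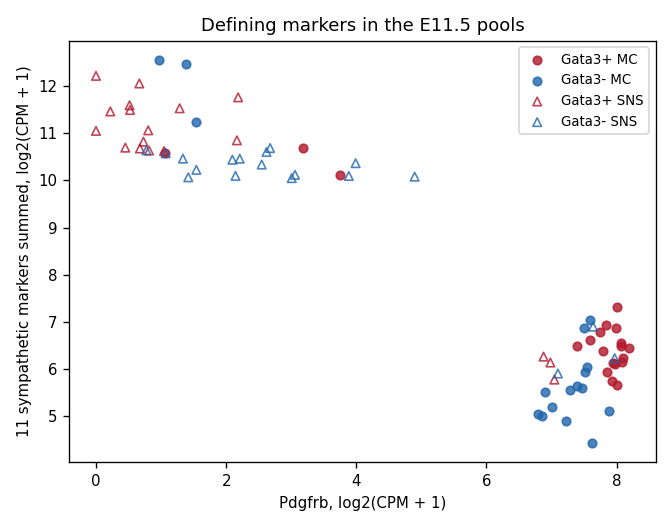
Pdgfrb (x axis) against the summed level of 11 sympathetic markers (y axis) in each E11.5 pool, both as log2(CPM + 1); circles are pools labelled MC, triangles pools labelled SNS, red Gata3+ and blue Gata3-. The 6 circles at upper left and the 6 triangles at lower right are the 12 pools that went against their label.

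Arterial ECs respond to VEGF and Notch signals and display ephrin-B2, the membrane ligand encoded by Efnb2. Its receptor EphB4 is displayed by venous ECs, and contact between ligand and receptor sends signals into both cells and keeps the vessels apart. COUP-TFII, the nuclear receptor encoded by Nr2f2, keeps venous identity by holding back Notch signaling. Gja4 and Gja5 encode connexins 37 and 40, which form gap junctions between arterial ECs, and Bmx a Tec family tyrosine kinase of arterial and endocardial endothelium. Nrp1 and Nrp2 encode neuropilins, co-receptors for VEGFs and class 3 semaphorins that tend to mark arterial and venous or lymphatic endothelium respectively. Apelin (Apln) is a peptide made by sprouting tip cells, and its receptor, encoded by Aplnr, marks venous and angiogenic endothelium. The dorsal aorta is the site where hematopoietic cells arise from arterial endothelium.

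The genes lie at these places in GRCm38 (GENCODE M21). Gja4 (ENSMUSG00000050234) is at chr4:127311421-127314039, Gja5 (ENSMUSG00000057123) at chr3:96904693-97077416, Bmx (ENSMUSG00000031377) at chrX:164192842-164258193, Efnb2 (ENSMUSG00000001300) at chr8:8617434-8661242 and Nrp1 (ENSMUSG00000025810) at chr8:128358604-128503363. Nr2f2 (ENSMUSG00000030551) is at chr7:70351944-70366735, Ephb4 (ENSMUSG00000029710) at chr5:137350109-137378669, Nrp2 (ENSMUSG00000025969) at chr1:62703285-62818695, Aplnr (ENSMUSG00000044338) at chr2:85136225-85139923 and Apln (ENSMUSG00000037010) at chrX:48025146-48034853. Genes on the opposite strand overlap 7.46% of the exon bases of Nr2f2 (B130024G19Rik), 2.87% of those of Gja5 (Gpr89) and 0.71% of those of Ephb4 (Zan), and Mir1903 overlaps 0.82% of those of Nrp1. Whether the counting used strand is not given in the sources used here, so reads in these stretches cannot be assigned with certainty.

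The 250 bases before the start of a RefSeq transcript (GRCm38.p6) were read for 9 members; that of Aplnr was not used here. They are shown for the member that rose most in Gata3+ ECs, Gja5, for the one with most matches to the words searched, Bmx, and for the venous regulator Nr2f2, each 5′ to 3′ on the gene's own strand. In Bmx and Nr2f2 capitals mark words of GATA factors (either of AGATAA and AGATAG, or either of TGATAA and TGATAG) or SOX factors (ACAATG and also ACAATA) on either strand; Gja5 has none. Gja5 spans chr3:97032152-97032401 on the plus strand, Bmx chrX:164258194-164258443 and Nr2f2 chr7:70366747-70366996 on the minus strand.
Gja5: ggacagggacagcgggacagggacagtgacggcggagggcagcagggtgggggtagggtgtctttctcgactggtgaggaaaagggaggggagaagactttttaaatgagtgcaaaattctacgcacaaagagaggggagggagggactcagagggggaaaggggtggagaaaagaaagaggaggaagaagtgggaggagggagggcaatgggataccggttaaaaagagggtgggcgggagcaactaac
Bmx: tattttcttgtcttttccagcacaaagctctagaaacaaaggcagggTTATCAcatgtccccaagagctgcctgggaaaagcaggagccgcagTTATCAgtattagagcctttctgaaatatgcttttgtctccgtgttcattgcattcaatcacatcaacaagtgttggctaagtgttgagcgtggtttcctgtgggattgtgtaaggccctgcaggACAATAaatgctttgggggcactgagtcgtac
Nr2f2: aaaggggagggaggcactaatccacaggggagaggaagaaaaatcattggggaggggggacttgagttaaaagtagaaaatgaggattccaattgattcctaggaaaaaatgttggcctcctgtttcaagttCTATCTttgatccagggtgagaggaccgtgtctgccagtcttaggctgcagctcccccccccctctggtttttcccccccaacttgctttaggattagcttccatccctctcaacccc
Bmx held 2 GATA words, whose first bases lie at -203 and -157 from the start, and 1 SOX word at -32; Nr2f2 held 1 GATA word at -118. The other 7 promoters had no match to either. Among all 32851 promoters of this length, 26.5% held a GATA word and 17.4% a SOX word. The same windows were searched on both strands for TGGGAA (RBPJ, the Notch effector; 21.6% of all promoters), CCGGAA (ETS; 12%), CACGTG (HEY; 6.02%), AGGTCA (COUP-TF; 14%) and TATAAA (12.4%), none of which overlapped another match; Bmx held TGGGAA once, Nrp1 AGGTCA once and Efnb2 TATAAA once. These are letter matches in short windows only.

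The first comparison asked how Gata3+ ECs differ from Gata3- ECs in arterial and venous identity. All 5 arterial members were higher in Gata3+ ECs and 4 of the 5 venous or angiogenic members were lower, by the quasi-likelihood test of edgeR (p-values adjusted after Benjamini and Hochberg over all 15073 genes tested). A call, here and throughout, needed an adjusted p below 0.01 and a change of more than 0.1 on the log2 scale. Over all genes tested, 19.5% were called higher and 16.5% lower. The median log2 fold change was 3.93 over the arterial and -3.51 over the venous or angiogenic members, against 0.10 over all genes. The members were proposed with results of these data known, so the counts describe them and are no independent evidence. A pool's RNA cannot tell fewer cells expressing a gene from less RNA per cell.

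Among the gap junction genes, Gja5 rose most. Its RNA ranged from 594 to 1242 CPM (median 843) over the 19 Gata3+ EC pools and from 1.61 to 79.2 CPM (median 6.25) over the 20 Gata3- EC pools. No pool of one population reached the range of the other, and the log2 fold change was 5.78 ± 0.39 (SE; adjusted p = 3.23e-16). Gja4, the other arterial connexin, ranged from 1079 to 2105 CPM (median 1532) in Gata3+ ECs and from 3.69 to 287 CPM (median 76.9) in Gata3- ECs. The ranges again stayed apart while the Gata3- pools spread widely, with a log2 fold change of 3.93 ± 0.35 (adjusted p = 1.79e-12).

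Bmx, the kinase gene, was low outside Gata3+ ECs. It lay at 48.0 to 192 CPM (median 120) in Gata3+ ECs and at 0 to 38.5 CPM (median 1.15) in Gata3- ECs, where only 4 of 20 pools held 10 counts or more. All 19 Gata3+ pools were above all Gata3- pools, with a log2 fold change of 4.98 ± 0.44 (adjusted p = 8.65e-13). The highest Gata3- pool weighs on this value: without it, the log2 fold change was 5.72.

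The 2 arterial genes for cell surface signaling had smaller log2 fold changes than the other 3. Efnb2 ranged from 478 to 726 CPM (median 590) in Gata3+ ECs and from 35.6 to 210 CPM (median 104) in Gata3- ECs, a log2 fold change of 2.41 ± 0.15 (adjusted p = 2.68e-17). Nrp1 ranged from 849 to 1947 CPM (median 1152) against 120 to 427 CPM (median 214), a log2 fold change of 2.36 ± 0.12 (adjusted p = 1.26e-19). Neither gene's ranges overlapped, and every Gata3- EC pool held at least 10 counts of both. Thus the ranges of all 5 arterial members stayed apart, which was so for 1.69% of all genes tested in this direction.

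On the venous side, Nr2f2, the COUP-TFII gene, ranged from 0.58 to 52.4 CPM (median 11.4) in Gata3+ ECs and from 91.3 to 361 CPM (median 194) in Gata3- ECs. The ranges did not overlap, and it fell by 3.51 ± 0.36 on the log2 scale (adjusted p = 8.78e-11). Nrp2, the neuropilin of venous and lymphatic endothelium, fell by 4.09 ± 0.38 (adjusted p = 4.09e-12), from 114 to 417 CPM (median 195) in Gata3- ECs to 0 to 48.8 CPM (median 9.08) in Gata3+ ECs. So the neuropilin genes moved in opposite directions between the same pools.

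The apelin receptor and its ligand were both lower. Aplnr, the receptor gene, ranged from 0.51 to 194 CPM (median 23.2) in Gata3+ ECs and from 283 to 708 CPM (median 464) in Gata3- ECs. It fell by 3.55 ± 0.47 on the log2 scale (adjusted p = 2.88e-08), with no overlap of ranges although the Gata3+ pools spread widely. Apln fell by 3.45 ± 0.52 (adjusted p = 4.69e-07), from 11.1 to 79.7 CPM (median 38.7) to 0 to 26.5 CPM (median 0.86). In Apln 17 of 19 Gata3+ pools lay below every Gata3- pool; the highest Gata3+ pool weighs on the value, which without it was -4.12. Of the venous members, 3 had ranges that stayed apart, against 1.35% of all genes tested in this direction.

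Ephb4, the receptor of ephrin-B2, was the exception. It ranged from 80.9 to 198 CPM (median 123) in Gata3+ ECs and from 84.4 to 187 CPM (median 123) in Gata3- ECs, and the ranges overlapped almost wholly. The log2 fold change was -0.07 ± 0.10 with a 95% interval of -0.26 to 0.12 (adjusted p = 0.585), so on the CPM scale no difference was detectable at this depth. Scaling to the ERCC spike-in RNAs, added in equal amount to each well, moved the median log2 fold change of all 15073 genes by -0.70, from 0.10 to -0.60, and the share of called genes that were higher from 54.1% to 14.3%. On that scale Ephb4 was lower by the test (log2 fold change -0.74 ± 0.16, adjusted p = 0.000101), which is -0.15 relative to the median of all genes, and the other 9 members kept their direction and call.

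**Figure D2:**
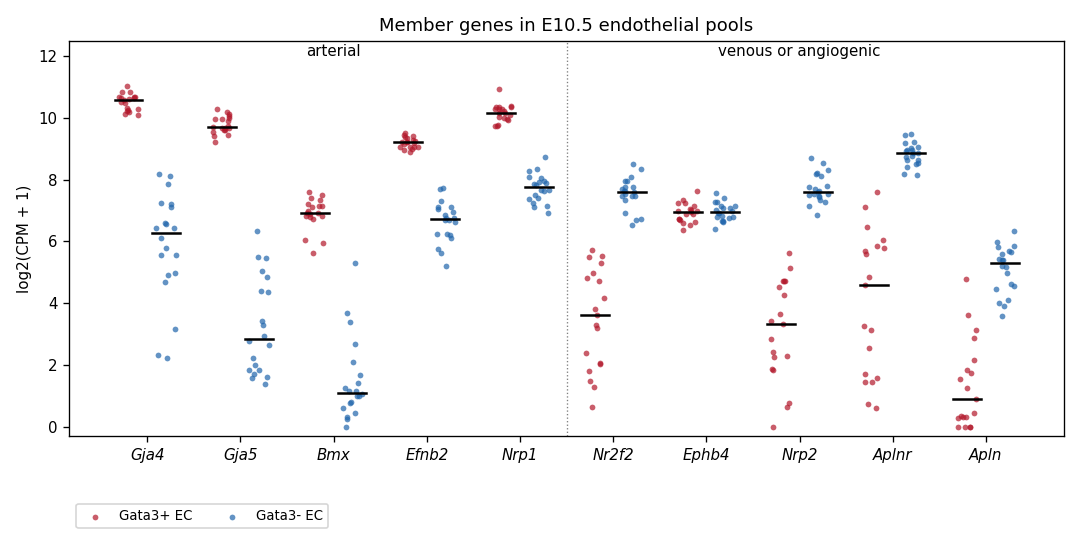
Level of each member gene in the E10.5 EC pools as log2(CPM + 1); each point is 1 pool (19 Gata3+ in red, 20 Gata3- in blue) and each bar a population's median. The 5 arterial genes separate upward in Gata3+ ECs, Nr2f2, Nrp2 and Aplnr separate downward, Apln overlaps slightly and Ephb4 coincides.

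Levels of different genes were compared only per kilobase of exon. In Gata3+ ECs Gja4 led with a mean of 879 CPM per kb, followed by Gja5 (155), Nrp1 (119), Efnb2 (85.9) and Bmx (40.2), and the venous members lay below all of these: Ephb4 at 26.7, Aplnr at 11.03, Nr2f2 at 2.07, Nrp2 at 1.13 and Apln at 1.10 CPM per kb. In Gata3- ECs Aplnr led with 126 CPM per kb, ahead of Gja4 (56.6), Ephb4 (27.3), Nr2f2 (23.1), Nrp1 (22.7), Nrp2 (18.9), Efnb2 (15.8) and Apln (11.97), while Gja5 (2.80) and Bmx (1.33) were last. All 20 Gata3- EC pools thus held Gja4 and Efnb2 RNA beside the venous genes. In turn, all 19 Gata3+ EC pools held counts of Ephb4, Nr2f2 and Aplnr, though Nr2f2 and Aplnr fell as low as 0.58 and 0.51 CPM. A pool's RNA cannot tell a mixture of cells from cells that express both kinds of gene.

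Other cell types' RNAs differed between the same EC populations. Of 14 mesenchymal and mural markers, 9 of 10 tested were called higher; their summed level was 63.1 to 4848 CPM (median 354) in Gata3+ ECs and 9.16 to 84.3 (median 27.2) in Gata3- ECs, led by Acta2 (299 against 7.55 CPM on average). In Gata3+ MCs outside the pools against their label the same sum was 10201 CPM or more. The 11 sympathetic markers summed to a median of 385 against 49.3 CPM, led by Stmn2 (407 against 48.0 CPM on average), while Sox10 had a median of 0 CPM in Gata3+ ECs. Only 4 of the 11 were tested, and 2 were called higher. The 8 epithelial markers summed to 64.2 against 2.99 CPM, led in Gata3+ ECs by Krt18 (62.1 against 0.68 CPM on average). Of these 3 were tested and 2 called higher. Both sums thus rest largely on 1 gene. The 10 hematopoietic markers summed to 289 against 106 CPM, with 4 called higher and 0 lower. The 12 pan-endothelial markers summed to 8261 against 4845 CPM, with 10 called higher and 1 lower. Over all genes tested, 19.5% were called higher. The part of these RNAs in the member differences was not tested. Leaving out each of the 39 EC pools in turn kept all 9 calls, which bears on single pools only and not on these RNAs.

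The relatives of the members show how far each difference extends within its family. Of 14 connexin and pannexin genes, 5 were tested in ECs: beside Gja4 and Gja5, Gja1, the connexin 43 gene, fell by 1.41 ± 0.29 on the log2 scale (96.7 ± 77.5 against 251 ± 77.5 CPM, mean ± SD; adjusted p = 7.45e-05), and Gjc1 and Panx1 were not called. Both Tec kinase genes tested were higher, Bmx and Tec (log2 fold change 3.50 ± 0.45, adjusted p = 1.52e-08). Of the 3 COUP-TF genes only Nr2f2 was called; Nr2f1 had 2.82 ± 3.62 against 6.03 ± 4.09 CPM and Nr2f6 12.2 ± 5.72 against 12.9 ± 5.12 CPM.

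Among the 9 genes of ephrin-B ligands, EphB receptors and their effector, 4 were higher and none lower in Gata3+ ECs (median log2 fold change 1.10). Besides Efnb2 these were Efnb3, another ephrin-B ligand (1.41 ± 0.37), Ephb3, a low-level receptor gene (2.87 ± 0.72, adjusted p = 0.00102; 4.80 ± 5.43 against 0.63 ± 1.48 CPM), and Rasa1, a Ras GTPase-activating protein downstream of EphB4 (0.58 ± 0.14). In the apelin list, Apela, another ligand of the receptor, had 1.45 ± 4.57 against 0.77 ± 1.82 CPM and was not called.

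Of 22 neuropilin ligand, co-receptor and neuropilin genes, 17 were tested, 12 were higher and 2 lower. The largest rises were in Pgf (placental growth factor, 4.08 ± 0.72, adjusted p = 8.92e-06) and Sema3g, a class 3 semaphorin of arterial ECs (3.83 ± 0.29, adjusted p = 1.11e-14; 127 ± 42.8 against 8.86 ± 7.74 CPM). The falls were in Nrp2 and in Flt4, the VEGF-C receptor VEGFR3 (-1.06 ± 0.11, adjusted p = 5.94e-11; 133 ± 36.8 against 271 ± 43.5 CPM). Vegfa (3.63 ± 0.33) and Vegfc (3.11 ± 0.24), ligands bound by neuropilins, rose as well.

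The wider lists were described in the same way. Of 22 other arterial genes, 19 were higher and none lower in Gata3+ ECs (median of the log2 values 2.73), and the largest were Fbln5 and Eln, genes of the elastic fibers of arterial walls (6.69 ± 0.39 and 6.41 ± 0.33, adjusted p = 2.77e-18 and 4.72e-20). Both were also expressed in MCs: Fbln5 had 454 ± 219 CPM in Gata3+ MCs as labelled, against 189 ± 106 in Gata3+ ECs, and Eln 97.8 ± 81.05 against 163 ± 89.0 CPM. The whole list summed to a median of 3912 CPM in Gata3+ MCs and 5225 CPM in Gata3+ ECs, the EC pools in which mesenchymal markers were also higher. Of 14 other venous and lymphatic genes, 13 were tested, 7 were lower and 3 higher (median -0.71). Stab2, a scavenger receptor of sinusoidal and lymphatic ECs, fell by 3.42 ± 0.59 (adjusted p = 6.46e-06), and Prox1, the regulator of lymphatic identity, fell by 3.36 ± 0.54 (adjusted p = 1.66e-06). Against that direction, Vwf, which encodes von Willebrand factor, rose from 60.3 ± 37.1 to 1558 ± 377 CPM (4.67 ± 0.22, adjusted p = 2.25e-21), and Vcam1, an adhesion molecule gene, had a log2 fold change of 4.02 ± 0.73 (adjusted p = 1.21e-05) from a low level.

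The 13 genes of angiogenic sprouting did not move as 1 group: 6 were higher, 3 lower and 4 not called (median 0.29). Pgf and Igfbp3 (1.05 ± 0.24, adjusted p = 0.00027) rose most, and Angpt2 (-1.30 ± 0.41, adjusted p = 0.00796) and Nid2 (-0.77 ± 0.23, adjusted p = 0.00597) fell most. Esm1, a tip cell gene, had 7.11 ± 9.26 against 14.5 ± 11.7 CPM and was not called.

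How the members varied among pools of 1 population was described by Pearson's r of log2(CPM + 1), which the difference between populations does not enter. All 10 pairs of arterial genes had a positive r in both EC populations, with medians of 0.50 (range 0.14 to 0.78) over the 19 Gata3+ pools and 0.70 (0.57 to 0.83) over the 20 Gata3- pools. The venous pairs were all positive in Gata3+ ECs (median 0.41, 0.14 to 0.86) but only 5 of 10 in Gata3- ECs (median 0.04, -0.51 to 0.52). Of the 25 arterial with venous pairs, 2 were positive in Gata3+ ECs (median -0.38) and 9 in Gata3- ECs (median -0.05). Points share library preparation and depth, and no test was made.

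The highest r in Gata3+ ECs joined Nrp2 and Aplnr (r = 0.86, Spearman's rho = 0.82, r = 0.83 without the 2 pools farthest in Nrp2), and the most negative set Gja4 against Aplnr (r = -0.71, rho = -0.66, r = -0.64 without 2 pools). In Gata3- ECs Nrp2 and Aplnr had an r of -0.51 (rho = -0.56, r = -0.44 without 2 pools), and Gja5 and Bmx the highest r of 0.83 (rho = 0.87, r = 0.77). Gata3 RNA had its highest r with Bmx in Gata3+ ECs (r = 0.63, rho = 0.40, r = 0.52) and with Nrp1 in Gata3- ECs (r = 0.37, rho = 0.26, r = 0.24).

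Marker sums moved with several members over the same 19 Gata3+ EC pools. The pairs given are a choice among all members and marker lists, and the rest, those with the mesenchymal sum included, are not given here. With the log2 sum of the pan-endothelial markers, r was 0.71 for Gja5 (rho = 0.71, r = 0.64 without 2 pools), 0.68 for Efnb2 (rho = 0.69, r = 0.65) and -0.64 for Nrp2 (rho = -0.66, r = -0.61). With the epithelial markers it was -0.75 for Nr2f2 (rho = -0.76, r = -0.71) and -0.62 for Nrp2 (rho = -0.76, r = -0.78). The part of these RNAs in the relations between members was not tested.

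**Figure D3:**
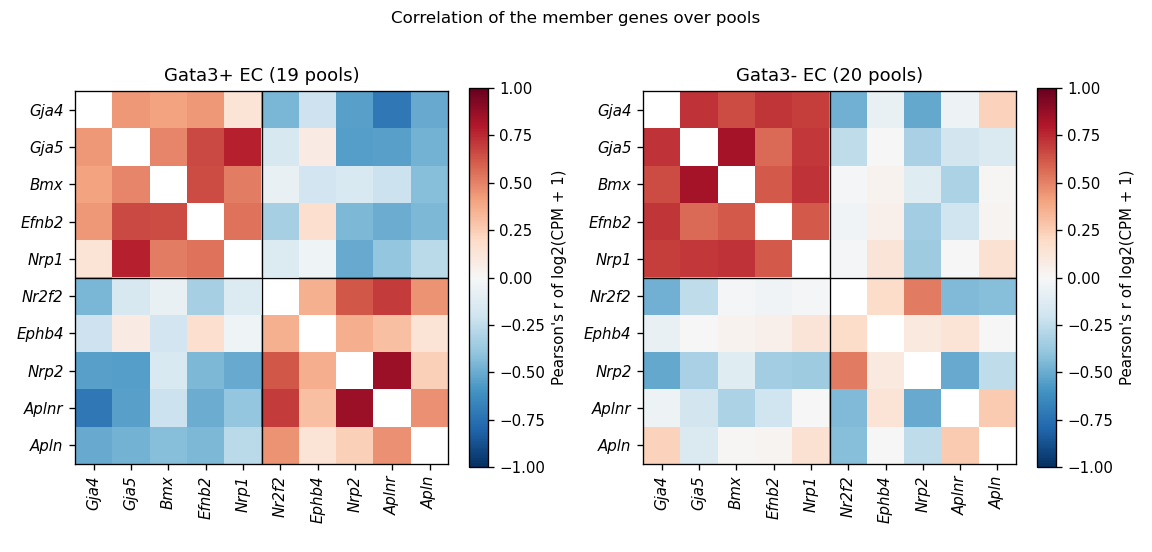
Pearson's r of log2(CPM + 1) between member genes over the 19 Gata3+ EC pools (left) and the 20 Gata3- EC pools (right); red is positive and blue negative, and lines divide arterial from venous or angiogenic genes. The arterial block is positive in both populations, while Nrp2 with Aplnr is 0.86 on the left and -0.51 on the right.

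In HCs, of the 9 members tested, 4 were higher in Gata3+ HCs and none lower, against 17.1% of all 16200 genes called higher and 9.53% lower; 5 members had an unadjusted p under 0.05, and DESeq2 and the study's test also called 4. The largest was Nr2f2, the venous regulator that was lower in Gata3+ ECs: it ranged from 3.16 to 124 CPM (median 53.0) in Gata3+ HCs and from 0.10 to 17.7 CPM (median 2.33) in Gata3- HCs. In all but 1 of the 20 Gata3+ HC pools it lay above every Gata3- pool (log2 fold change 3.63 ± 0.43, adjusted p = 1.48e-08).

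Ephb4, level between the EC populations, was also higher in Gata3+ HCs, at 1.05 to 27.9 CPM (median 12.3) against 0.10 to 10.9 CPM (median 1.59), with a log2 fold change of 2.43 ± 0.43 (adjusted p = 1.75e-05). Its ligand gene Efnb2 ranged from 5.05 to 63.6 CPM (median 16.8) against 0.52 to 19.5 CPM (median 3.94; 1.79 ± 0.38, adjusted p = 0.000205). Gja4 had 3.83 to 48.1 CPM (median 14.1) against 1.19 to 11.8 CPM (median 3.12; 1.91 ± 0.31, adjusted p = 4.08e-06). The ranges of all of these overlapped. Mean levels of Ephb4, Efnb2 and Gja4 in both HC populations lay below those in both EC populations. By pool, Gja4 and Efnb2 in Gata3+ HCs overlapped Gata3- ECs, which ranged from 3.69 to 287 and from 35.6 to 210 CPM.

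The other members gave no call in HCs. Nrp1 was well expressed in both, at 109 ± 57.5 and 106 ± 35.8 CPM (mean ± SD; log2 fold change 0.04, 95% interval -0.38 to 0.47, adjusted p = 0.903). Nrp2 had 20.6 ± 15.1 against 11.2 ± 10.54 CPM (0.89 ± 0.37, adjusted p = 0.0555), Gja5 4.42 ± 2.05 against 3.14 ± 2.36 CPM, Bmx 1.41 ± 2.66 against 1.29 ± 1.67 CPM and Aplnr 2.34 ± 1.34 against 2.50 ± 2.50 CPM. Apln passed no filter, with at most 3.92 CPM in a pool.

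Markers of other cell types were also higher in Gata3+ HCs: 12 of 14 mesenchymal, 11 of 11 sympathetic, 5 of 8 epithelial and 6 of 12 pan-endothelial genes passed the test, while 8 of 10 hematopoietic markers were lower. The mesenchymal and mural sum was 36.4 to 1851 CPM (median 507) against 10.47 to 182 (median 71.8), the sympathetic sum 5.72 to 2491 (median 144) against 2.87 to 31.3 (median 14.7), the epithelial sum 2.11 to 184 (median 65.1) against 1.49 to 24.5 (median 9.46) and the pan-endothelial sum 131 to 736 (median 256) against 64.6 to 232 (median 119). The hematopoietic sum was lower in Gata3+ HCs, at a median of 3305 against 5970 CPM. Over the 20 Gata3+ HC pools, the highest r between these log2 sums and each called member was 0.68 for Ephb4 with the epithelial markers (rho = 0.39, r = 0.41 without 2 pools), 0.61 for Efnb2 with the sympathetic markers (rho = 0.60, r = 0.58), 0.59 for Gja4 with the pan-endothelial markers (rho = 0.53, r = 0.51) and 0.65 for Nr2f2 with the mesenchymal markers, which rests on 2 pools (rho = 0.29, r = 0.12 without them). Efnb2 had an r of 0.60 with the mesenchymal markers too (rho = 0.73, r = 0.59). The part of these RNAs in the HC differences was not tested.

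The difference between Gata3+ and Gata3- cells itself differed between ECs and HCs in 9 of 10 members, by an interaction term fitted on the 79 E10.5 pools. In ECs 4 had a higher and 5 a lower log2 difference than in HCs, against 8.60% and 14.1% of the 17851 genes tested. Nr2f2 stood farthest out, at -7.15 ± 0.58 (adjusted p = 2.09e-17), since it was lower in Gata3+ ECs and higher in Gata3+ HCs. Gja5 (5.21 ± 0.50), Bmx (4.96 ± 0.73) and Nrp1 (2.32 ± 0.25) had a larger difference in ECs, whereas Efnb2 gave no call (0.59 ± 0.38, adjusted p = 0.242). Gja5, Bmx, Aplnr and Apln lay at 4.42 CPM or less on average in both HC populations, so the HC side of their terms rests on low counts. Gja4 had a larger difference in ECs as well, but lost the call with ERCC size factors (1.37, adjusted p = 0.0184), which left 8 members called. That scaling moved the median of all genes for this term by -0.63, from -0.11 to -0.75. With the 2 populations of each cell type averaged, all 10 members were lower in HCs than in ECs, against 24.0% of genes called lower and 26.6% higher, from -1.90 ± 0.27 for Nrp2 to -5.94 ± 0.34 for Aplnr on the log2 scale. Among Gata3+ cells alone the order of Nr2f2 was the opposite, with 57.8 CPM in HCs against 17.9 in ECs (adjusted p = 7.12e-06 in the fit of all populations), and the means of Nrp2 were 20.6 against 13.4 CPM, which did not pass the test (adjusted p = 0.107).

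In MCs, cells around the vessels that include mural cell precursors, 2 of 7 members tested were higher in Gata3+ cells and none lower, against 2.21% of 16026 genes called higher and 2.15% lower; the study's test called 1 and DESeq2 called 2. Nrp1 ranged from 277 to 509 CPM (median 432) in Gata3+ MCs and from 179 to 366 CPM (median 240) in Gata3- MCs, with a log2 fold change of 0.68 ± 0.08 (adjusted p = 5.45e-07), and 0.69 ± 0.09 without the 12 pools against their label (adjusted p = 5.94e-07), when 5.52% of genes were called higher. Efnb2 ranged from 29.9 to 245 CPM (median 174) against 51.8 to 144 CPM (median 84.7), with 0.81 ± 0.20 (adjusted p = 0.00581). With ERCC size factors Efnb2 as labelled was just short of a call (0.82 ± 0.20, adjusted p = 0.0104). Its 3 lowest Gata3+ pools were those against their label, and without the 12 pools the ranges were 110 to 245 and 56.2 to 144 CPM (0.95 ± 0.12, adjusted p = 2.7e-07).

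Nrp2 in MCs went the other way, near the threshold. As labelled it had 31.1 ± 22.6 CPM in Gata3+ and 61.9 ± 28.8 in Gata3- MCs (-1.001 ± 0.31, adjusted p = 0.0346, not called). Without them it had 26.6 ± 21.3 against 62.1 ± 30.5 CPM and was called lower (-1.23 ± 0.34, adjusted p = 0.00996), against 4.89% of genes. Nr2f2 and Ephb4 were well expressed in MCs but gave no call: Nr2f2 had 237 ± 67.9 against 202 ± 88.9 CPM (0.22 ± 0.23; 0.05 ± 0.11 without the 12 pools) and Ephb4 59.1 ± 17.2 against 51.0 ± 19.6 CPM (0.20 ± 0.18; 0.16 ± 0.13).

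In the SNS no member was called as labelled (edgeR; 7 tested, 2 with an unadjusted p under 0.05, against 2.01% of 16143 genes called higher and 1.86% lower), while DESeq2 and the study's test each called 1. That member was Nr2f2, whose call with the pools as labelled turned on the test, scaling and pools used: its adjusted p was 0.00482 by DESeq2, 0.00201 by the study's test, 0.00127 with ERCC size factors and 0.00926 with the pools that failed the filters included. As labelled it ranged from 22.9 to 314 CPM (median 52.8) in Gata3+ SNS cells and from 108 to 383 CPM (median 176) in Gata3- SNS cells (-1.15 ± 0.31, adjusted p = 0.0128). Without the 12 pools the ranges were 22.9 to 74.4 and 108 to 220 CPM with no overlap, and it fell by 1.83 ± 0.15 (adjusted p = 4.87e-11), against 5.48% of genes called lower and 4.94% higher. Efnb2 had 50.7 ± 20.4 against 57.9 ± 42.3 CPM as labelled and 46.8 ± 19.7 against 42.5 ± 18.8 CPM without them, and was not called either way.

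The MC and SNS differences were compared by an interaction term on the 74 E11.5 pools. Nrp1 (0.79 ± 0.14, adjusted p = 2.08e-05) and Nr2f2 (1.38 ± 0.39, adjusted p = 0.00791) had a higher log2 difference in MCs, against 4.49% of genes, and Nrp2 (-1.40 ± 0.37, adjusted p = 0.00441) a lower one, against 5.17%. Without the 12 pools the same genes were called, at 0.71 ± 0.15, 1.88 ± 0.18 and -1.45 ± 0.40, against 5.64% of genes with a higher and 4.73% with a lower difference. With Gata3+ and Gata3- averaged, Efnb2 (-1.14 ± 0.17), Nr2f2 (-0.74 ± 0.19) and Ephb4 (-0.51 ± 0.12) were lower in the SNS than in MCs as labelled and none was higher, against 12% and 11.4% of genes; without the 12 pools these were joined by Nrp1 (-0.22 ± 0.07) and Bmx, against 19.7% of genes lower and 20.5% higher.

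**Figure D4:**
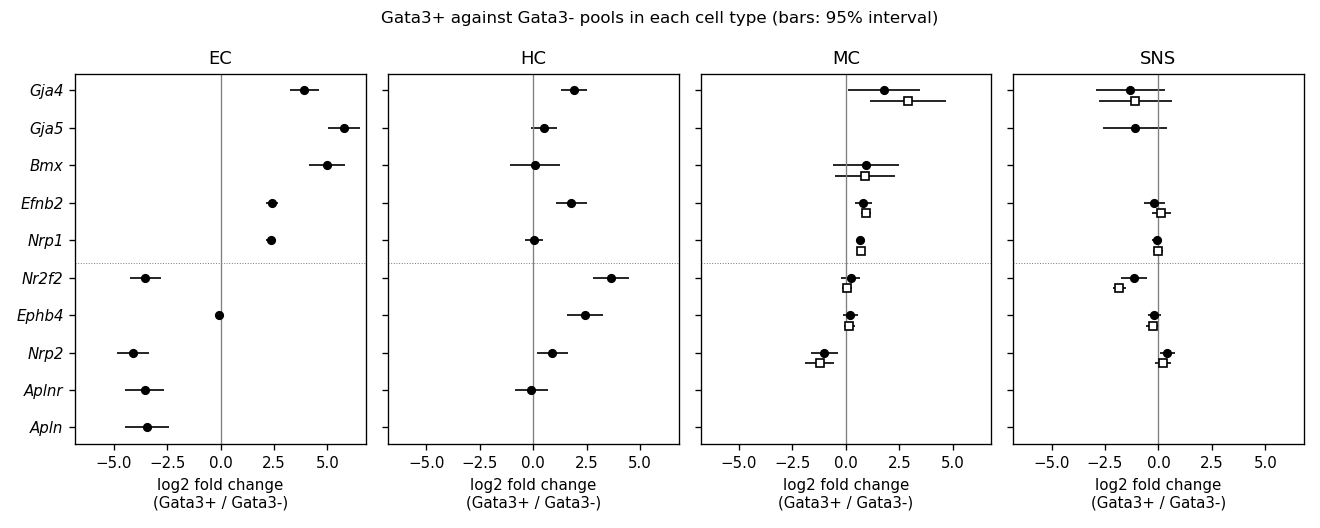
Log2 fold change of each member between Gata3+ and Gata3- pools in ECs, HCs, MCs and SNS, with 95% intervals; filled circles use the pools as labelled and open squares leave out the 12 E11.5 pools against their label. In ECs all 5 arterial genes lie above 0 and 4 of the venous genes below, Nr2f2 lies at -3.51 in ECs and 3.63 in HCs, and a missing point means that the gene was not tested.

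Across the 8 populations, 22 of the 70 neighbouring pairs in the order of mean CPM differed by the test, fitted over all populations with the pools as labelled, and 28 of 70 without the 12 pools against their label. Gja4 and Gja5 shared their order at the top: Gata3+ ECs (1481 ± 275 and 893 ± 177 CPM), then Gata3- ECs (95.4 ± 86.4 and 16.1 ± 20.3), then Gata3+ HCs (15.7 ± 10.97 and 4.42 ± 2.05), each step passing the test. Below that, Gja4 also stepped from Gata3+ HCs to Gata3+ MCs (4.35 ± 4.67 CPM), and no lower neighbours of either gene differed as labelled; without the 12 pools Gja5 also stepped from Gata3- HCs to Gata3+ MCs (adjusted p = 0.00447). Outside ECs, therefore, Gja5 was at 4.42 CPM or less on average.

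Bmx, Efnb2 and Nrp1 were highest in Gata3+ ECs as well, but Gata3+ MCs came second. For Bmx these were 124 ± 38.6 and 6.03 ± 6.57 CPM, and no pair of neighbours below differed as labelled. For Bmx the 12 pools mattered: without them the SNS populations had at most 0.30 CPM in a pool. Efnb2 had 589 ± 71.0 CPM in Gata3+ ECs, 158 ± 62.3 in Gata3+ MCs and 108 ± 47.1 in Gata3- ECs, the last pair not differing as labelled (adjusted p = 0.0456) but differing without the 12 pools (adjusted p = 0.00266), and it was lowest in Gata3- HCs (6.01 ± 6.11). Nrp1 was the most even member, from 1164 ± 249 CPM in Gata3+ ECs and 408 ± 68.2 in Gata3+ MCs to 106 ± 35.8 in Gata3- HCs, and the 4 populations between 222 and 296 CPM had no neighbours that differed.

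The venous members fell into a broad and a narrow pattern. Nr2f2 was broad: Gata3+ MCs (237 ± 67.9), Gata3- MCs (202 ± 88.9), Gata3- ECs (199 ± 69.8) and Gata3- SNS (194 ± 72.7 CPM) had no neighbours that differed, and Gata3+ ECs (17.9 ± 17.2) and Gata3- HCs (4.79 ± 5.27) were last, each below its neighbour by the test. Without the 12 pools Gata3+ SNS cells had 47.4 ± 15.1 CPM of Nr2f2, against 88.1 ± 95.5 as labelled, and Gata3- SNS cells (167 ± 35.1 CPM) lay above their next neighbour, Gata3+ HCs, by the test (adjusted p = 1.69e-06). Ephb4 was highest in both EC populations (127 ± 25.8 and 124 ± 28.2 CPM), then stepped down to the MC and SNS populations (59.1 to 36.1 CPM, and 63.6 to 32.6 CPM without the 12 pools, no neighbours differing either way) and again to Gata3+ HCs (13.8 ± 8.54) and Gata3- HCs (2.62 ± 2.77). Nrp2 was 224 ± 79.5 CPM in Gata3- ECs and 61.9 ± 28.8 CPM in Gata3- MCs, and no neighbours below that differed, down to 13.4 ± 13.5 in Gata3+ ECs and 11.2 ± 10.54 in Gata3- HCs.

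The apelin genes were narrow. Aplnr stepped from Gata3- ECs (467 ± 119 CPM) to Gata3+ ECs (40.8 ± 52.4) and again to Gata3- HCs (2.50 ± 2.50), and it had 0 counts in 65 of the 74 E11.5 pools. Apln stepped from Gata3- ECs (37.7 ± 18.6) to Gata3+ ECs (3.47 ± 6.39) and to Gata3+ HCs (0.47 ± 0.89), and had no count in any of the 20 Gata3+ MC and 19 Gata3- SNS pools, which allows a level of up to 0.032 and 0.0331 CPM over each group (3 counts of the total, counting error only).

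**Figure D5:**
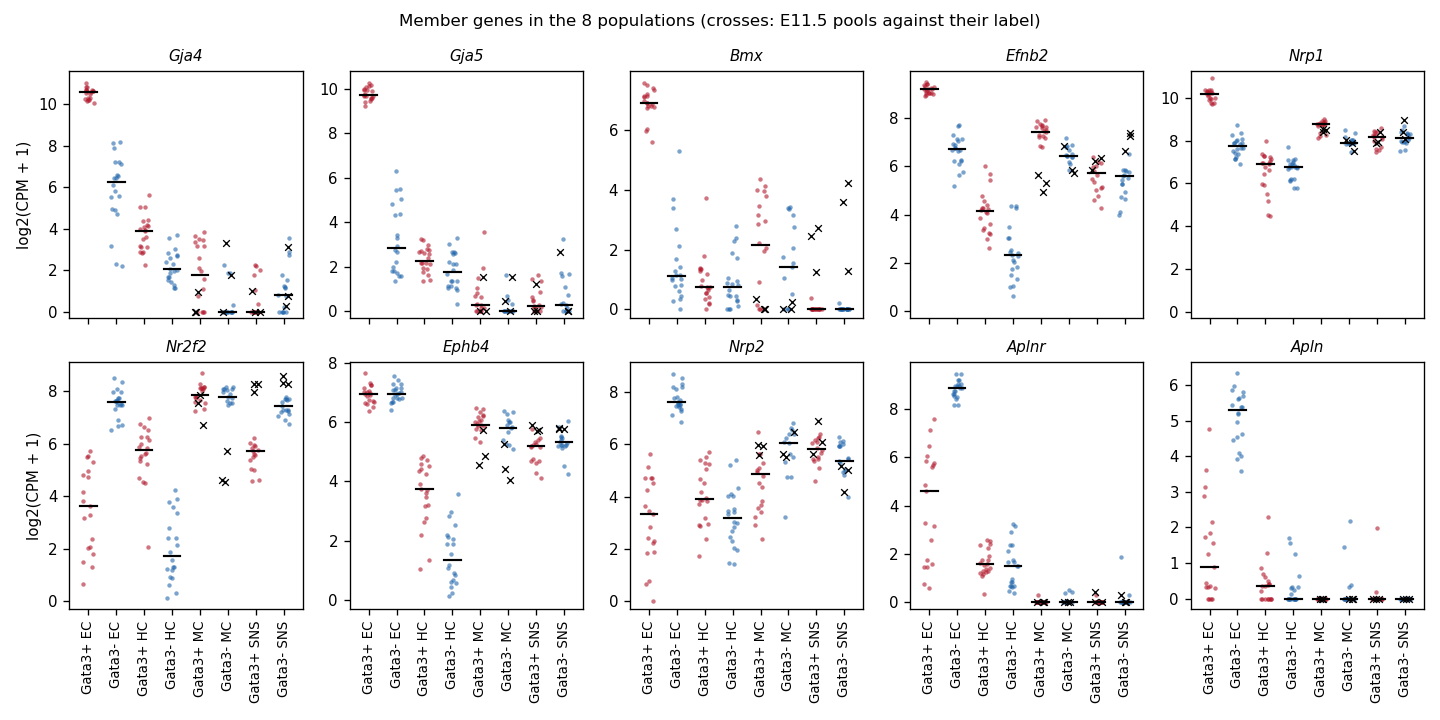
Level of each member as log2(CPM + 1) in every passing pool of the 8 populations, with the median of each as a bar; crosses are the 12 E11.5 pools against their label, included in the medians. Gja4, Gja5, Aplnr and Apln are at 13.5 CPM or less in every MC and SNS pool, while Nrp1, Nr2f2, Ephb4, Nrp2 and Efnb2 are also expressed in MCs and SNS.

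The genes most like each member over the 153 pools, by Pearson's r of log2(CPM + 1) among 16435 genes, were found as a description that mostly reflects the differences between populations. Gja4 was most like Gja5 (0.91), AU021092 (0.91) and Mall (0.91), and Gja5 most like Nkx2-3 (0.92), Agr2 (0.92) and Sost (0.92). Bmx was nearest to Lama3 (0.87), Htra1 (0.85) and Nkx2-3 (0.85). Efnb2 was nearest to H19 (0.91), Fstl1 (0.90) and the Notch target Hey1 (0.89), and Nrp1 to Bmpr2 (0.85), Hey1 (0.84) and Pam (0.84). Hey1 and Nkx2-3 were each near a pair of arterial members.

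Of the venous members, Nr2f2 was nearest to Akap12 (0.84), Vash2 (0.84) and Flrt3 (0.82), and Ephb4 to Amotl1 (0.92), Nid1 (0.92) and Lamb1 (0.92). Nrp2 had no close match, the highest being Cfdp1 (0.67), Ywhaq (0.66) and Gm3788 (0.63). Aplnr was nearest to Col15a1 (0.93), Prl3b1 (0.93) and Kcne3 (0.92), and Apln to Prl3b1 (0.90), Aplnr (0.89) and Fam167b (0.89).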

How the data were processed

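The deposited counts are whole reads per Ensembl gene, made by the authors with HTSeq; their methods name STAR alignment to Ensembl release 81, while the submitters' processing notes name GSNAP, HTSeq 0.5.3p3 and mm10. The strand setting is not given in the sources used here. Reads that HTSeq called ambiguous were a median of 16.3% per passing pool (4.62% to 19.8%) and stayed out of all tests.

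Pools passed with at least 500000 reads on genes and ERCC RNAs, 20% of reads on genes, and at most 20% each on mitochondrial genes and ERCC RNAs. Testing was limited to genes that reached 10 counts in 5 or more pools, and was done with edgeR 4.0.16 (R 4.3.3; TMM scaling, quasi-likelihood, robust) within each cell type, Benjamini-Hochberg adjusted over all genes tested, and called at an adjusted p under 0.01 with a log2 fold change beyond 0.1. The standard error is the log2 fold change over the square root of F, and intervals are 1.96 standard errors. CPM used TMM over the 153 passing pools, and correlations log2(CPM + 1). Depth limits precision to a floor of 3 counts, 0.187 to 2.14 CPM in a pool; floors cover counting error only. Tested on simulated EC counts (14594 genes), the procedure called 54.8% of genes changed 2-fold and 80.4% of those changed 4-fold, with 2 false calls. Those counts were drawn independently for each pool, with 196 of the tested genes changed. They hold no shared sorts or embryos, so the false calls do not measure the error rate in the real pools.

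The members and lists were chosen with earlier results of these data known, and 1 marker of the sympathetic list is not reported here. Genes named were the members, sorting markers, the 2 largest rises and falls of each list in ECs and the 3 genes most like each member; Acta2, Gjc1, Panx1, Nr2f1, Nr2f6, Efnb3, Rasa1, Apela, Vegfa, Vegfc and Esm1 were added after their values were seen. Alternatives used other size factors (DESeq2 1.42.0, ERCC, scran 1.30.0), filters, pools and thresholds, the DESeq2 test and the study's test (scanpy 1.11.5). The study's test was rerun here with the pools, gene filter and call limits of this report, so its results are not the study's own. Promoter sequences came from RefSeq (GRCm38.p6).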

Additional observations from a re-analysis of the deposited data

Results flagged for a closer look

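The Gata3+ against Gata3- difference was not the same in ECs and HCs for 9 members, by edgeR's interaction term over the E10.5 pools. Of all 17851 genes tested, 8.60% had a higher and 14.1% a lower log2 difference in ECs. The members were chosen with earlier results of these data known. The log2 difference in ECs minus that in HCs was 1.95 for Gja4, 5.21 for Gja5, 4.96 for Bmx and 2.32 for Nrp1 among the arterial genes. Among the venous or angiogenic genes it was -7.15 for Nr2f2, -2.57 for Ephb4, -4.99 for Nrp2, -3.53 for Aplnr and -4.29 for Apln. For Gja5, Bmx, Aplnr and Apln the HC side rests on low counts, and Apln was not tested within HCs. With ERCC size factors, which moved the median of all genes for this term by -0.63, Gja4 lost the call (1.37, adjusted p = 0.0184).

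Between MCs and SNS the difference also differed in 3 members over the E11.5 pools as labelled: the MC minus SNS value was 0.79 for Nrp1, 1.38 for Nr2f2 and -1.40 for Nrp2. Of all 17733 genes tested, 4.49% had a higher and 5.17% a lower difference in MCs. Without the 12 pools against their label the values of the 3 members were 0.71, 1.88 and -1.45, against 5.64% and 4.73% of genes.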

How the results depend on the processing

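No paired analysis was possible because the columns carry no pool numbers that tie pools of different populations. Of 587 member values under the alternatives, 554 kept their direction and side of the threshold, 8 lost the call, 16 gained it and 9 changed sign; in ECs 119 of 120 kept both, the exception being Ephb4 under ERCC scaling. The causes were not tested.

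Under ERCC size factors the genes called higher and lower became 951 and 5685 in ECs, 519 and 5241 for the EC minus HC difference, 7403 and 2509 for HCs against ECs, 844 and 169 in the SNS, 443 and 1423 for the MC minus SNS difference and 7623 and 922 for SNS against MCs; 948 were lower in HCs and 105 in MCs. Of called genes, the share higher moved from 50.7% to 72.4% in MCs and from 52.0% to 83.3% in the SNS, where the median of all genes moved by 0.35. Members called higher were then 1 in MCs, 1 for the MC minus SNS difference and 2 in SNS against MCs, and 1 was lower in the SNS. Signs changed for Nrp1 in HCs (-0.0022), for Efnb2 (0.14), Nrp1 (0.28) and Ephb4 (0.15) in the SNS, and for Nrp1 (0.35) and Ephb4 (0.0054) in SNS against MCs.

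Without the 12 pools against their label, chosen after seeing the data, 840 genes were higher and 745 lower in MCs with 1 member lower, 773 and 858 in the SNS with 1 member lower, and 3550 and 3413 in SNS against MCs with 5 members lower; Efnb2 in the SNS turned to 0.14. With an adjusted p under 0.05, 2378 genes were lower in HCs, 720 higher and 794 lower in MCs and 736 and 598 in the SNS, with 1 member lower in each of the last 2. The fit of all 8 populations gave 637 genes lower in MCs with 1 member higher and 1 lower. The lower member was Apln, not Nrp2. Apln was not tested in the main MC fit and had means of 0 CPM in Gata3+ and 0.34 in Gata3- MCs. DESeq2's test gave 544 genes higher in MCs and 1 member lower in the SNS. The study's test, as rerun here, gave 213 genes higher and 1 member lower in the SNS, and 1 member higher in MCs. In HCs it gave -0.17 for Nrp1 and 0.25 for Aplnr. In ECs the rerun moved the share of called genes that were higher from 54.1% to 43.9% (2424 higher and 3096 lower). The paper itself reports more genes upregulated than downregulated in Gata3-GFP+ ECs, so the rerun does not reproduce its counts. A minimum of 10 counts in 20 pools gave 1827 genes higher in HCs. With no filter, 1 member, again Apln, was lower in MCs, and for the MC minus SNS difference 1 was higher and 2 lower. With scran 1 was higher for that difference. With all pools 1 member was lower in the SNS.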
